A study of Ictidomys tridecemlineatus with 10 samples.

Results

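The S100A genes encode small calcium-binding proteins of the EF-hand superfamily. The 7 described here are S100a1, S100a4, S100a6, S100a10, S100a11, S100a13 and S100a16, taken by symbol from the 25964 genes of the table. All 7 were found, and all 7 passed the filter on low values, a mean of at least 1 CPM (counts per 1e+06 reads, scaled by the authors) over the 10 libraries. They were chosen by family and with their CPM values in both states already known, so their differences between states are given as a description. Threshold calls of these genes are printed for completeness and are no independent test.

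RNA was sequenced from the subfornical organ, a midline brain organ outside the blood-brain barrier that senses blood osmolality and angiotensin, of thirteen-lined ground squirrels. The 5 Active libraries came from non-hibernating animals. The 5 interbout arousal (IBA) libraries came from hibernating animals in arousal, when body temperature is normal for a time before torpor resumes. The labels give no age, sex, strain, treatment or allele, and the organ was cut from brain slices by hand, so neighbouring tissue may be present.

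S100 proteins are found in vertebrates and mostly work as dimers. Calcium binding exposes a surface that grips partner proteins, among them annexins, myosin and membrane channels, and some members also act outside the cell on receptors such as RAGE. In the brain, single members mark astrocytes, ependymal and meningeal cells, vascular cells, phagocytes and subsets of neurons. These roles are known from human, mouse and rat, not from ground squirrels.

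Agtr1, Scn7a and Etv1, genes known from subfornical neurons and glia, were present in every library, with lowest values of 13.6, 422 and 87.8 CPM. Library totals recovered from the CPM values ran from 20993093 to 30713168 reads for the Active animals, and for IBA they ran from 24195342 to 35382203 reads. The libraries were uneven in neighbouring tissue: summed choroid plexus markers reached 13472 CPM in Active replicate 4, against a highest IBA sum of 3016 CPM. They were uneven too in the number of genes at 0. It was 1601, 2164 and 2549 in Active replicates 3, 4 and 5, and 4187 and 5270 in Active replicates 1 and 2. Among IBA libraries it was 3776 to 5945, and 5833 in IBA replicate 1, the library with the most reads. The cause was not tested. Counts of S100A reads ranged from 35 reads of S100a4 in Active replicate 5 to 13293 reads of S100a1, so counting error was small beside the spread between animals for all but the lowest S100a4 values.

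S100a6, also called calcyclin, is a growth-related member that binds annexins and the calcyclin-binding protein Cacybp. Its values in Active replicates 1 to 5 were 42.9, 60.5, 59.0, 55.9 and 36.1 CPM. In IBA replicates 1 to 5 they were 115, 175, 79.0, 102 and 124 CPM. Every IBA library was above every Active library, with IBA replicate 2 the highest and Active replicate 5 the lowest of all. The means were 50.9 ± 10.8 CPM in Active and 119 ± 35.6 CPM in IBA (SD, n = 5 each). The log2 difference, IBA minus Active on the log2(CPM + 0.5) scale used for every such value here, was 1.20 (SE 0.20, 95% interval 0.76 to 1.64). Of the 15445 genes tested, 0.162% had a larger log2 difference in the same direction. S100a6 was chosen with this contrast known, so its rank is a description and no support.

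S100a4 binds non-muscle myosin, is linked to cell movement, and is found in fibroblasts and phagocytes. It was at 3.56, 3.74, 3.69, 4.98 and 1.08 CPM in Active replicates 1 to 5 and at 7.76, 13.3, 13.3, 4.71 and 11.03 CPM in IBA replicates 1 to 5. IBA replicate 4 lay below Active replicate 4, and the other 4 IBA libraries lay above all Active libraries. Its log2 difference, 1.45 (SE 0.35, 95% interval 0.69 to 2.21), had a wider interval that contains the value of S100a6. The gap between the pair depended on single libraries. Without IBA replicate 3 the log2 differences of S100a4 and S100a6 were both 1.33. Without Active replicate 5 they were 1.15 and 1.08, in the same order as with all libraries. S100a4 had the lowest counts of the 7 genes.

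S100a10 and S100a11 are the annexin partners of the family. S100a10, also called p11, has lost the ability to bind calcium, forms a complex with annexin A2 and helps carry channels and receptors to the cell surface. Its values were 26.4, 26.8, 24.0, 12.1 and 23.4 CPM in Active replicates 1 to 5. In IBA replicates 1 to 5 they were 33.9, 53.4, 32.4, 35.4 and 31.1 CPM. The states did not overlap for this gene, although a single library stood apart in each: Active replicate 4 was low and IBA replicate 2 was high. The log2 difference was 0.74 (SE 0.22, 95% interval 0.26 to 1.21), and 0.53 without Active replicate 4, the library with the high choroid plexus sum.

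S100a11, also called calgizzarin, binds annexin A1 and takes part in membrane repair. It was at 17.6, 24.2, 20.7, 18.5 and 13.7 CPM in Active replicates 1 to 5 and at 25.5, 50.9, 31.1, 28.7 and 21.9 CPM in IBA replicates 1 to 5. IBA replicate 5 lay below Active replicate 2, and the other 4 IBA libraries lay above all Active libraries. The log2 difference was 0.69 (SE 0.21, 95% interval 0.23 to 1.15).

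S100a13 takes part in the export of proteins without a signal peptide, such as the growth factor FGF1. Its Active values were close together, at 52.8, 41.1, 44.4, 41.9 and 41.1 CPM in replicates 1 to 5. Its IBA values were 84.0, 79.7, 29.9, 65.8 and 72.7 CPM in replicates 1 to 5, so that 4 libraries lay above all Active libraries and IBA replicate 3 lay below all of them. The log2 difference was 0.50 (SE 0.24, 95% interval -0.01 to 1.01), and 0.76 without IBA replicate 3.

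S100a1, known for its action on the calcium release channel of heart muscle and present in brain, varied most within Active animals. Its values there were 383, 195, 249, 106 and 304 CPM in replicates 1 to 5. In IBA replicates 1 to 5 it was at 390.7, 325, 181, 350.5 and 306 CPM. The states overlapped widely, and the lowest value was that of Active replicate 4. The log2 difference of 0.41 (SE 0.31, 95% interval -0.26 to 1.07) became 0.13 without that library.

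S100a16 is a widely expressed member with weak calcium binding. It was at 95.8, 94.7, 81.3, 109 and 105 CPM in Active replicates 1 to 5 and at 96.6, 123, 72.9, 97.3 and 112 CPM in IBA replicates 1 to 5. Both the lowest and the highest of its 10 values were in IBA libraries. The log2 difference was 0.03 (SE 0.14, 95% interval -0.27 to 0.33), and it turned negative (-0.03) when libraries were scaled to equal totals. The interval leaves changes of that size in either direction possible.

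**Figure D1:**
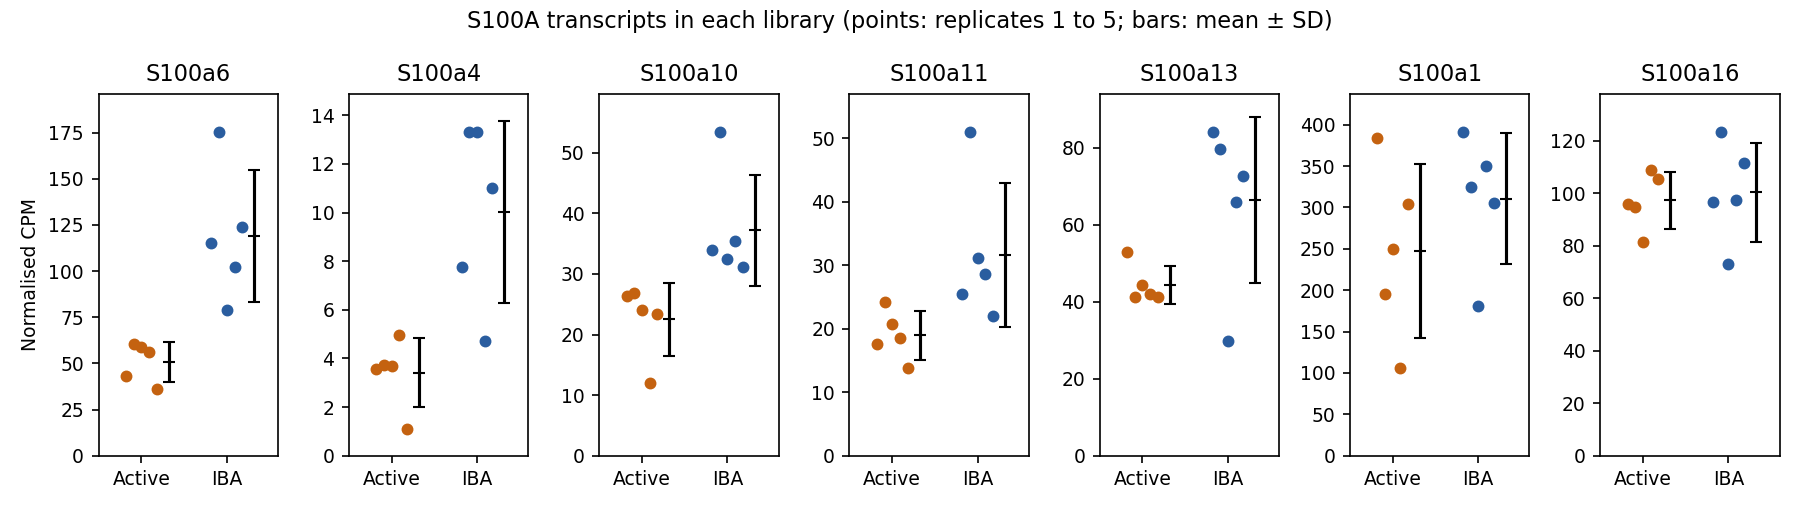
Normalised CPM of the 7 S100A genes (vertical axes from 0, 1 panel a gene) in Active and IBA libraries; points are replicates 1 to 5 from left to right and bars are the mean ± SD. S100a6 and S100a10 do not overlap between states, and S100a16 lies between 72.9 and 123 CPM in both.

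Of the 7 genes, 1 (S100a6) had an adjusted p under 0.05 in limma's fit over all genes, where 0.401% of all genes tested did. All 7 had a higher mean log2 value in IBA, as did 54.1% of all genes tested. Their median log2 difference was 0.69, and that of all genes tested was 0.03. S100a6 and S100a10, 2 of the 7, had every IBA value above every Active value, which held for 3.59% of all genes tested. Since this same contrast was known when the genes were chosen, nothing is read from these counts. The limma call of S100a6 was lost without Active replicate 1, 2, 4 or 5 or without IBA replicate 1, 2 or 4, with adjusted p between 0.0508 and 0.0910, and was kept without Active replicate 3 or IBA replicate 3 or 5. Without IBA replicate 3, S100a13 was called too, where 0.168% of all genes were. edgeR on the recovered reads called S100a6 alone (0.369% of all genes), DESeq2 called S100a4, S100a6, S100a10 and S100a11 (9.89% of all genes), and limma with the replicate number as a block called S100a6 and S100a11 (1.5% of all genes). In the authors' deposited table, with its sign turned to IBA minus Active, the log2 fold changes were 1.23 for S100a6 (FDR 0.226), 1.56 for S100a4 (FDR 0.0992) and 0.58 for S100a13 (FDR 0.171). The FDR of the other 4 in the authors' deposited table ran from 0.292 to 0.936, so none of the 7 was under 0.05 there. The share of all genes under 0.05 in that table was not counted, so nothing is read from this. In whole tissue, a change in the number of cells of a type and a change in RNA per cell cannot be told apart.

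S100a6 was then set against its paralogues within each library, a measure that library scaling does not change except through the small pseudocount. The log2 value of S100a6 minus the mean log2 value of the other 6 genes was 0.13, 0.76, 0.75, 0.94 and 0.29 in Active replicates 1 to 5. In IBA replicates 1 to 5 it was 1.11, 1.32, 0.91, 1.09 and 1.25. IBA replicate 3 lay just under Active replicate 4, and the other 4 IBA libraries lay above all Active libraries. The state means were 0.57 ± 0.34 and 1.13 ± 0.16 (SD, n = 5 each), a difference of 0.56.

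The size of that contrast depended on the paralogue. The ratio of S100a6 to S100a16 was 0.448, 0.639, 0.726, 0.514 and 0.342 in Active replicates 1 to 5 and 1.19, 1.42, 1.08, 1.05 and 1.11 in IBA replicates 1 to 5. In each IBA library S100a6 thus had the higher CPM of the pair, and in each Active library S100a16 did. The ratio to S100a13 was 0.813 to 1.47 among Active libraries and 1.37 to 2.64 among IBA libraries, with 4 of 5 IBA libraries above the highest Active one. That to S100a11 was 2.44 to 3.03 among Active libraries and 2.54 to 5.65 among IBA libraries, again with 4 of 5 above. The ratios to S100a1 and S100a10 overlapped, with 1 and 0 IBA libraries above the highest Active value. For both, that value was Active replicate 4, at 0.527 for S100a1 and 4.63 for S100a10. The other Active libraries were at 0.112 to 0.310 for S100a1 and at 1.54 to 2.46 for S100a10. The IBA libraries were at 0.292 to 0.540 for S100a1 and at 2.44 to 3.99 for S100a10. The ratio to S100a4 had means of 17.8 ± 8.98 in Active and 13.4 ± 5.74 in IBA (SD, n = 5 each), and its states overlapped. The gap between the means narrowed without Active replicate 5, at 33.3. The other 4 Active libraries were at 11.2 to 16.2 with a mean of 13.9, still above the IBA mean. The lowest ratio was that of IBA replicate 3, at 5.94. These ratios compare each pair between libraries and do not rank transcript amounts of different genes, since transcript lengths were not used.

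**Figure D2:**
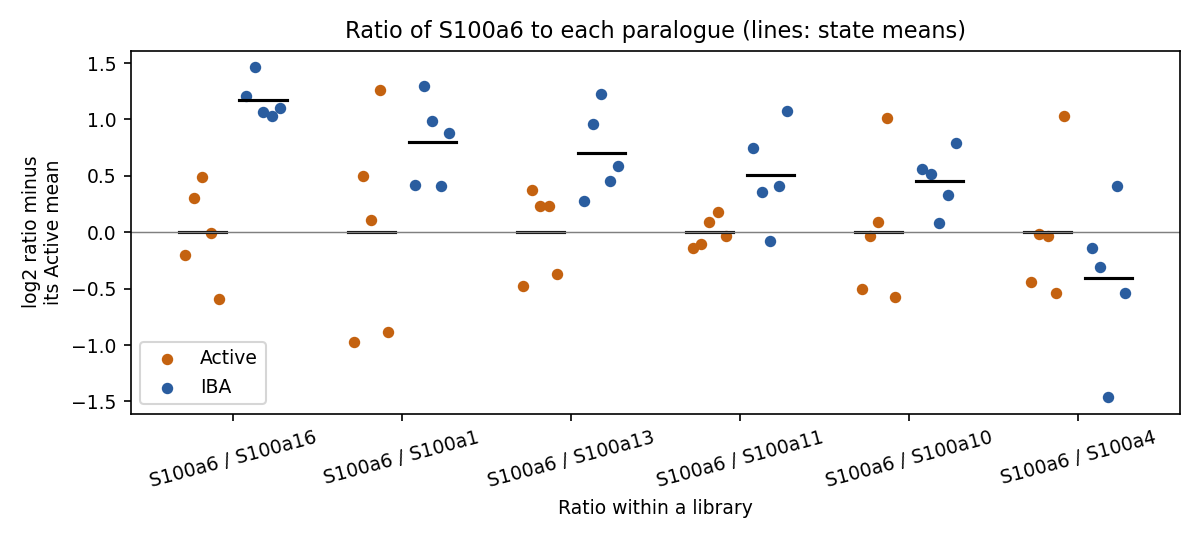
Log2 ratio of S100a6 to each of 6 paralogues within a library, with the Active mean set to 0; points are libraries and lines state means. The ratio to S100a16 is higher in all 5 IBA than in all 5 Active libraries, while that to S100a4 overlaps, with Active replicate 5 far above the other Active libraries.

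The 7 genes did not vary as a block within a state. After the mean of each state was taken off, Pearson's r between pairs of members over the 10 libraries ran from -0.54 (S100a1 with S100a4) to 0.69 (S100a13 with S100a16), with 14 of 21 pairs positive. S100a6 had its highest r with S100a11, 0.65, and its lowest with S100a1, -0.08. These r values are descriptions of 10 libraries that share depth and tissue makeup. IBA replicate 2 held the highest IBA value of 4 of the 7 genes, and IBA replicate 3 the lowest of 4. Active replicate 5 held the lowest Active value of 4. IBA replicate 3 held the lowest IBA values of S100a1, S100a6, S100a13 and S100a16. For S100a4 it stood highest, level with IBA replicate 2, both at 13.3 CPM.

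**Figure D3:**
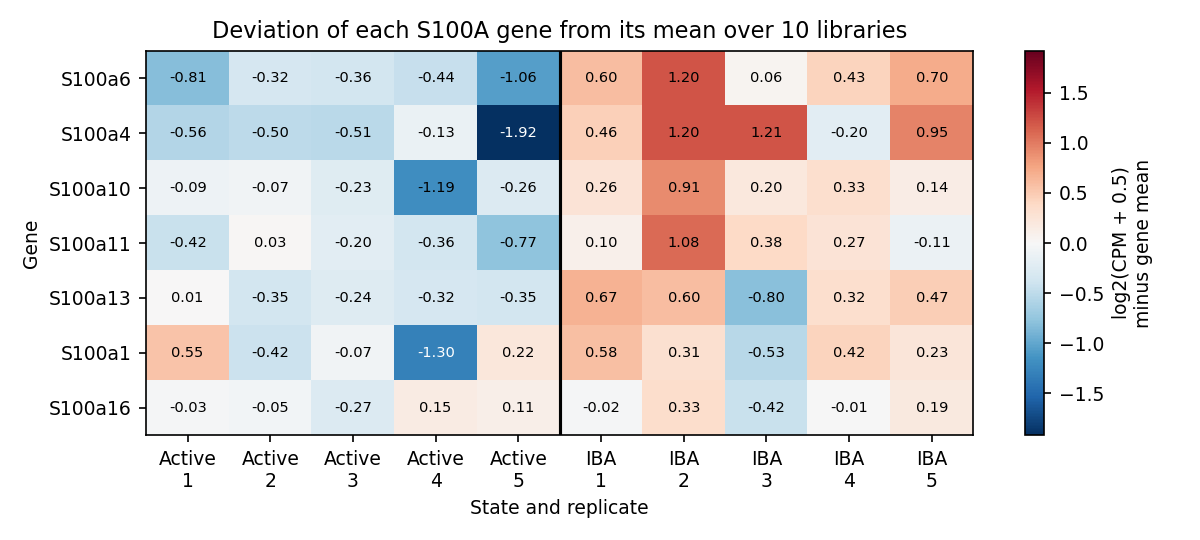
Deviation of log2(CPM + 0.5) from the mean of each gene over the 10 libraries, with genes in rows and libraries in columns, Active left of the black line and IBA right of it. S100a6 is below 0 in 5 of 5 Active and above 0 in 5 of 5 IBA libraries; IBA replicate 3 is negative for S100a13, S100a1 and S100a16.

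Most S100 genes lie in a single cluster of the mammalian genome. In the reference assembly mIctTri1.hap1, used for names and gene order only, all 7 members lie on the same chromosome, and 13 S100 genes lie along it, with other genes between some of them, in the order S100a1, S100a13, S100a14, S100a16, S100a2, S100a3, S100a4, S100a5, S100a6, S100a8, S100a9, S100a11 and S100a10. S100a4, S100a5 and S100a6 are direct neighbours among protein-coding genes. S100a5, which is not among the 7, is an olfactory and brain member with low values here: 0.0881 to 1.51 CPM among Active and 0.412 to 4.02 CPM among IBA libraries. Its log2 difference was 0.93 (95% interval -0.08 to 1.95, adjusted p = 0.244 in limma) and did not pass. S100a1, S100a13 and S100a16, the first members in this order, had the 3 smallest log2 differences of the 7 members. S100a10 and S100a11 are neighbours too, apart from the rest, and had log2 differences of 0.74 and 0.69. The sources used here do not say if the read counting used strand, so reads of close neighbours such as S100a1 and S100a13 may be shared.

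**Figure D4:**
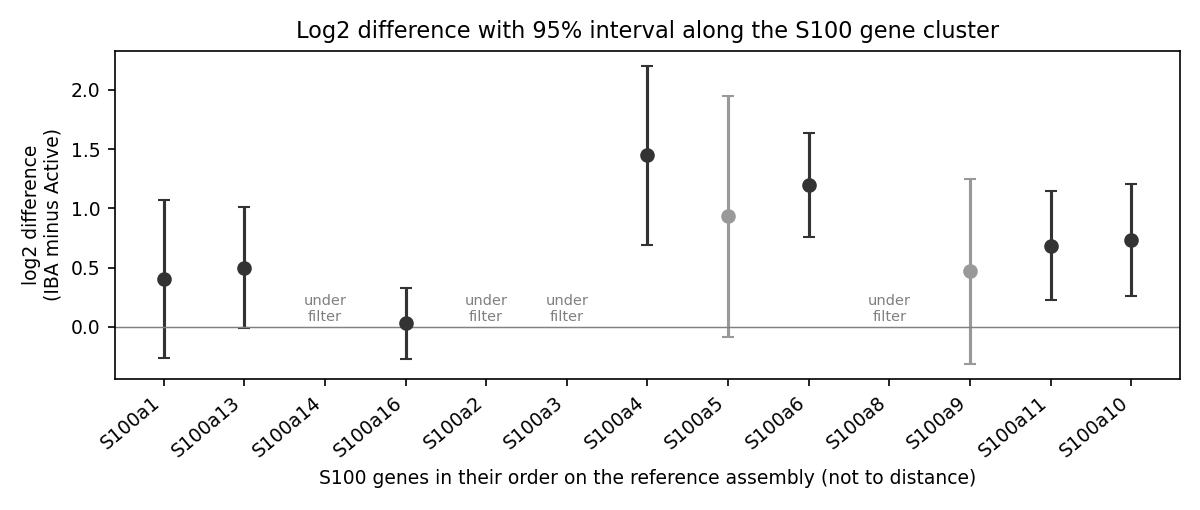
Log2 difference (IBA minus Active) with its 95% interval for S100 genes in their order on the reference assembly, not to distance; black points are the 7 members and grey points other S100 genes that were tested. S100a4, S100a5 and S100a6 stand at 1.45, 0.93 and 1.20, and S100a16 at 0.03.

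Of 13 other genes with an S100 name that were looked for, 10 were measured and 3 passed the filter on low values. S100b, S100a7a and S100a12 were not analysed here. S100a9, a subunit of calprotectin in neutrophils, ranged over 0.430 to 1.76 CPM among Active and 0.650 to 4.07 CPM among IBA libraries (log2 difference 0.47, adjusted p = 0.448 in limma). S100pbp, which encodes an S100P-binding protein and no EF-hand protein, was at 100.2 ± 9.50 and 103 ± 6.11 CPM. S100a2, S100a3, S100a8, S100a14, S100g, S100p and S100z had means between 0.0119 and 0.631 CPM over the 10 libraries, and 3 reads correspond to 0.0882 to 0.132 CPM. Neither limma, edgeR nor DESeq2 called any of the 3 that were tested, and 0 had an unadjusted p under 0.05 in limma, which 23.9% of all genes tested had.

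The annexins, membrane-binding proteins that S100A dimers bridge, gave no call. Of 9 tested, 0 passed in limma over all genes, 0 in edgeR and 0 in DESeq2. In limma 1 had an unadjusted p under 0.05, which 23.9% of all genes tested had. Of the 9, 7 had higher and 2 lower means in IBA, and their median log2 difference was 0.04. Anxa2, the partner of S100a10, averaged 875 ± 283 CPM in Active animals and 876 ± 158 CPM in IBA animals (log2 difference 0.04, interval -0.41 to 0.49, limma adjusted p = 0.916). Anxa1, the partner of S100a11, averaged 84.2 ± 18.3 and 134 ± 42.6 CPM (log2 difference 0.63, interval 0.17 to 1.10, limma adjusted p = 0.113). Its states overlapped, with 3 IBA libraries above all Active libraries. Anxa5, which is widely used to detect dying cells, was at 105.5 ± 28.6 and 106 ± 15.5 CPM (log2 difference 0.04). Anxa4, Anxa9 and Anxa3 had log2 differences of 0.25, -0.01 and -0.38, all with intervals that include 0.

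Among S100 partners and receptors, 0 of 17 tested passed in limma and 0 in edgeR. DESeq2 called 6 (Ager, Ahnak, Dlg5, Syt1, Hltf and Stip1), where it called 9.89% of all genes. In limma 8 had an unadjusted p under 0.05, 3 of them higher in IBA, and 23.9% of all genes tested had such a p. By mean log2 value, 6 were higher and 11 lower in IBA, with a median log2 difference of -0.23. Ager, the gene of the receptor RAGE, averaged 165 ± 66.6 CPM in Active animals and 73.2 ± 25.8 CPM in IBA animals. Its log2 difference was -1.15 (95% interval -1.88 to -0.41, adjusted p = 0.0898 in limma), and Active replicates 1 and 4 lay below the highest IBA value. Ahnak, a giant scaffold protein that binds the complex of S100A10 with annexin A2, was at 20.7 ± 3.24 and 13.5 ± 3.16 CPM (log2 difference -0.61, 95% interval -0.98 to -0.25, adjusted p = 0.0783 in limma). Cacybp, the calcyclin-binding protein, was at 153 ± 9.62 and 132 ± 22.8 CPM (log2 difference -0.23, adjusted p = 0.263 in limma). Syt1, a calcium sensor of synaptic vesicles that joins S100A13 in protein export, and Hltf, a chromatin remodeller bound by the S100A10 complex, had log2 differences of 0.39 and 0.36 (adjusted p = 0.0843 and 0.0894 in limma).

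Other EF-hand calcium sensors and buffers gave 0 calls among 20 tested in limma, edgeR and DESeq2. In limma 3 had an unadjusted p under 0.05, which 23.9% of all genes tested had. There were 15 higher and 5 lower by mean log2 value, with a median log2 difference of 0.19. Hpca, the neuronal sensor hippocalcin, and Kcnip4, a subunit of potassium channels, had log2 differences of 0.55 and 0.54 (adjusted p = 0.291 and 0.247 in limma). Hpcal1 and Hpcal4, relatives of hippocalcin, had -0.34 and -0.31 (adjusted p = 0.202 and 0.411 in limma).

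**Figure D5:**
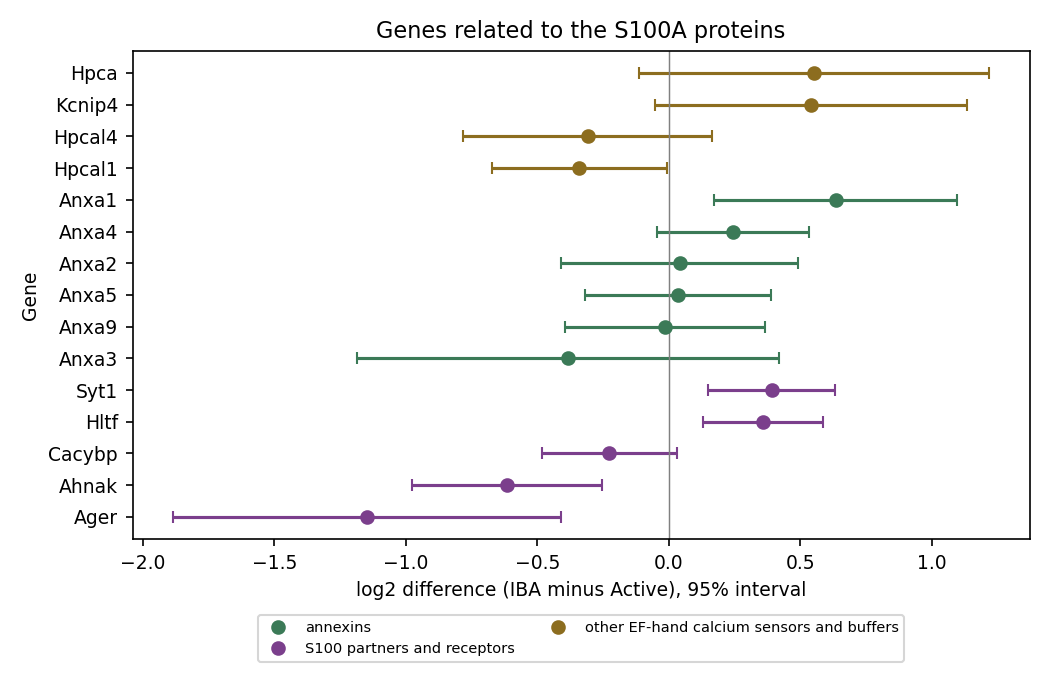
Log2 difference (IBA minus Active) with 95% interval for annexins, S100 partners and receptors, and other EF-hand genes named by a set rule; each point is 1 gene over 10 libraries. Ager at -1.15 and Ahnak at -0.61 lie lowest among the partners, Anxa1 at 0.63 highest among the annexins.

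Markers of cell types that express S100A genes were measured beside them. Of the 13 microglia and macrophage markers, 11 were tested, and limma called 2 (P2ry12 and Tyrobp) higher and 1 (Lyve1) lower in IBA. In limma 6 of the 11 had an unadjusted p under 0.05, 4 of them higher in IBA. edgeR called 3, and DESeq2 called P2ry12, Tyrobp, Cx3cr1 and Lyve1. Over all genes tested, limma called 0.401%, edgeR 0.369% and DESeq2 9.89%, and 23.9% had an unadjusted p under 0.05 in limma. The summed level of the microglia and macrophage markers was 226 to 294 CPM among Active and 299.9 to 346 CPM among IBA libraries. The mean score of the tested markers, in log2 units around each gene's mean, overlapped between states (-0.25 to 0.30 and -0.05 to 0.08). Fibroblast and leptomeningeal markers (9 of 10 measured) summed to 699.7 to 1378 and 696 to 1128 CPM, with 0 limma calls, 2 markers at an unadjusted p under 0.05, 1 DESeq2 call and a median log2 difference of -0.04. Endothelial markers (10 of 10) summed to 519.8 to 998 and 666 to 933 CPM, and ependymal markers (10 of 10) to 262 to 574 and 238 to 542 CPM. Astrocyte markers (9 of 10) summed to 7184 to 19452 CPM and 10505 to 14534 CPM. Neuronal markers (10 of 10) had 9 higher and 1 lower mean in IBA, a median log2 difference of 0.42 and sums of 1643 to 2834 and 2121 to 3329 CPM. Of these 10, limma called 0, 4 had an unadjusted p under 0.05 in limma and a higher IBA mean, and DESeq2 called Syt1 and Gad1. Over all genes tested, 54.1% had a higher mean log2 value in IBA. Oligodendrocyte markers (10 of 10) summed to 758 to 1855 and 628 to 3379 CPM, and choroid plexus markers (9 of 10) to 563 to 13472 and 479 to 3016 CPM. In the other lists, limma called 0 markers, DESeq2 called Aldh1l1 among astrocyte and Foxj1 among ependymal markers, and unadjusted p under 0.05 was found for 2 astrocyte, 1 endothelial, 1 ependymal, 1 choroid plexus and 0 oligodendrocyte markers. No measured marker of these lists was at 0 in all 10 libraries. The part of these cells in the S100A differences was not tested.

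The genes most like S100a6 within states lay outside the family. Among 12344 other genes with a symbol and a mean of at least 2 CPM, the 5 highest r values with S100a6, after the mean of each state was taken off and over 10 libraries, were those of Mrps11 (0.98), Nedd8 (0.97), Rpl35 (0.97), Sms (0.97) and Rpl19 (0.97). Mrps11 encodes a mitochondrial ribosomal protein, Nedd8 a ubiquitin-like modifier, Sms spermine synthase, and Rpl35 and Rpl19 cytosolic ribosomal proteins. Their log2 differences between states were 0.10, 0.36, 0.66, 0.14 and 0.50, all smaller than that of S100a6. The nearest paralogue in this ranking, S100a11, stood at rank 910.

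Since cytosolic ribosomal protein genes were among these, such genes were set beside S100a6, a choice made after the likeness was seen. The mean score of 73 of them was -0.87 to -0.03 among Active and -0.18 to 0.64 among IBA libraries. All 73 had a higher mean log2 value in IBA, as did 54.1% of all genes tested. Their median log2 difference was 0.57, and 0 of them were past the threshold in limma. The part of this shared variation in the S100a6 difference was not tested. Within states, the deviations of S100a6 and of this score had a Pearson's r of 0.92 and a Spearman's rho of 0.95 over 10 libraries, and r was 0.92 without IBA replicate 3 and Active replicate 5. The score includes Rpl35 and Rpl19, and the gene class was picked for their high r with S100a6 in these same libraries. A high r was thus in part set by that choice and is no independent support. Against the same score, Pearson's r was 0.62 for S100a11, 0.57 for S100a13, 0.48 for S100a4 and 0.33 for S100a16. For S100a10 and S100a1 it was 0.16 and -0.05. The deviation of S100a6 from its mean, less this score, was -0.48, -0.29, -0.31, -0.31 and -0.19 in Active replicates 1 to 5 and 0.26, 0.56, 0.24, 0.11 and 0.42 in IBA replicates 1 to 5. On this measure the state means differed by 0.63, against 1.20 for S100a6 alone. S100a6 and the gene class were both chosen with these data seen, so this difference is a description and no test. By the same subtraction the difference was 0.88 for S100a4, 0.17 for S100a10, 0.12 for S100a11, -0.06 for S100a13, -0.16 for S100a1 and -0.53 for S100a16.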

How the data were processed

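The submitters' processing notes name R 4.2.1, edgeR 3.38.4, Subread 2.0.1 with featureCounts, STAR 2.7.7a and Trimmomatic 0.39. The sources used here give no build, annotation or strand setting. The authors deposited, per the file headers, CPM normalised by library and its state means, a signal scaled by library factors, with a log2 fold change, an average log2 CPM, an F score, and a p-value with its FDR. In every library 100% of the values were whole multiples of 1 read, within 0.01 of a read, so reads were recovered. Libraries are biological replicates by the design text.

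The 15445 genes whose mean reached 1 CPM were fitted with limma 3.58.1 in R 4.3.3 on log2(CPM + 0.5), with an intensity trend, two-sided, Benjamini-Hochberg adjusted, threshold 0.05. edgeR 4.0.16 and DESeq2 1.42.0 on the recovered reads were alternatives. On data simulated for this comparison over 15315 genes, 64.2% of genes changed 2-fold were recovered, with 9 false calls among 130.

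The members and lists were chosen with earlier results of these data known. List genes were named if called, if among the 2 largest differences each way with a mean of at least 2 CPM, or from a fixed set. Same-numbered libraries were not taken as pairs. The symbols of all 7 members matched the reference list. No protein or promoter sequence was used here.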

Additional observations from a re-analysis of the deposited data

Results flagged for a closer look

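In groups of 5 libraries, a value was singled out when its gap to the nearest other library was more than 0.71 of the whole range, which chance gives in about 1 of 20 groups; 9 of 58 groups were singled out, 3 of them for members. S100a10 was at 12.1 CPM in Active replicate 4, with the other Active libraries at 23.4 to 26.8 CPM, and at 53.4 CPM in IBA replicate 2, with the other IBA libraries at 31.1 to 35.4 CPM. S100a13 was at 52.8 CPM in Active replicate 1, against 41.1 to 44.4 CPM in the others. Active replicate 4 was also low for S100pbp, at 83.6 CPM against 102.5 to 108 CPM. Active replicate 5 was high for Anxa3 (17.2 CPM against 5.90 to 7.82) and Hpcal1 (55.1 CPM against 38.1 to 42.2), and low for Hltf (203 CPM against 253 to 272). Hpca was high in Active replicate 1 (10.1 CPM against 2.54 to 4.62), and Hpcal1 in IBA replicate 5 (47.2 CPM against 28.5 to 33.8). The causes were not tested.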

How the results depend on the processing

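Over 23 alternative settings the log2 difference stayed above 0 for S100a6 (1.05 to 1.37), S100a4 (1.15 to 1.68), S100a10 (0.50 to 0.81), S100a11 (0.50 to 0.80), S100a13 (0.40 to 0.76) and S100a1 (0.13 to 0.59), and was below 0 in 4 of 23 for S100a16 (-0.05 to 0.18). The adjusted p of S100a6 was under the threshold in 14 of 23 settings and ran from 2.62e-05 to 0.158. Of the 7 members, 1 was past the threshold in the main limma fit; the count was 0 with no filter on low values and without Active replicates 4 and 5 together, 2 with the replicate block, and 4 by DESeq2, where 9.89% of all genes were. Leaving out 1 library gave 0 to 2 members: 0 without Active replicate 1, 2, 4 or 5 or IBA replicate 1, 2 or 4, and 2 without IBA replicate 3, where S100a13 joined S100a6. Over all genes, 62 were called, and 6 with no filter, 121 with sample quality weights, 231 with the replicate block, 1527 by DESeq2, 57 by edgeR, 0 without Active replicates 4 and 5 together, 23 without IBA replicate 3 and Active replicate 4 together, and 4 to 245 with 1 library left out. Of the calls, 34 were higher and 28 lower with the deposited scaling, and 28 and 51 with libraries scaled to equal totals. S100a6 minus the mean of its paralogues differed by 0.56 between states, by 0.45 to 0.65 with 1 library left out, by 1.17 against S100a16 alone and by -0.25 against S100a4 alone. That last value was -0.44 to 0.01 with 1 library left out: -0.07 without Active replicate 5, and 0.01, with its sign turned, without IBA replicate 3. The causes of these changes were not tested. Same-numbered libraries deviated together with r over 0.1 in 3 of 5 pairs (-0.17 to 0.20), and 3 of 5 Active libraries had their highest r with the IBA library of their number. Since not every pair was over 0.1, the numbers were not taken as pairs. The omission of IBA replicate 3 with Active replicate 4 and the single-paralogue contrasts were chosen after seeing the data. With 5 animals a state, smaller changes could pass unseen: 23.9% of simulated 1.5-fold changes were recovered. That simulation left out the variation that genes share within a library, so the rate may differ here.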
